A study of Mus musculus with 32 samples.

Results

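Intermediate filament genes were followed in the gastrocnemius (GAS) muscle of mice over 28 d after the sciatic nerve was cut. The set held 9 of the 33397 genes in the table. These were the simple-epithelial keratins Krt8, Krt18 and Krt19, the muscle filament genes Des (desmin), Vim (vimentin), Nes (nestin), Synm (synemin) and Sync (syncoilin), and the linker gene Plec (plectin). Krt8 and Krt18 were chosen by their FPKM, for a large rise after denervation in these same samples, so their values against 0 d and on the steps up to 5 d are given as a description without a test. The other members were listed by name with earlier results of these data known. RNA was sequenced from 32 muscles, 4 at each of 8 time points, namely 0, 1, 3, 5, 7, 14, 21 and 28 d. All mice are labelled C57BL/6, and the study's methods describe C57BL/6J males of 6 to 8 weeks whose left sciatic nerve was transected. The labels enter nerve transection as the treatment of every sample, the 0 d samples included, while the study treats its baseline muscles as a sham group without denervation, and the columns taken as 0 d carry the letter C. These 4 columns name no day and were taken as 0 d by elimination, since the other 28 name the other 7 days. No column names an animal, so the 4 samples of a day were used as replicates of 1 group and p-values measure the spread between them.

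Intermediate filaments are rope-like polymers of coiled-coil proteins that give cells mechanical strength. Desmin is the main filament protein of mature skeletal muscle and ties neighbouring myofibrils at the Z-discs to the cell membrane, the nucleus and the mitochondria. Vimentin and nestin are known from muscle precursors and regenerating fibres, and vimentin is also abundant in fibroblasts, endothelium and leukocytes. Synemin and syncoilin join desmin filaments rather than building filaments of their own, and plectin crosslinks filaments to Z-discs and costamere complexes. Keratins 8 and 18 form obligate pairs of a type II and a type I chain, best known from simple epithelia such as liver and gut, and keratin 19 is a further type I chain.

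Levels are given in FPKM (fragments scaled by exon length and by the mapped total of the sample) as mean ± SD over the 4 samples of a day. FPKM is per length, so levels of different genes can be set side by side. Changes are log2 fold changes of FPKM + 1 from a limma fit over 22071 genes and all 32 samples, with SE, and a gene was called where its Benjamini-Hochberg adjusted p was under 0.05 and the change at least 1.5-fold. Recovered totals ran from 14199901 to 17561586 fragments per sample. The 10 muscle fibre markers each averaged at least 1 FPKM on every day and summed to 46178 to 50386 FPKM at 0 d, 24861 to 29122 at 3 d and 30722 to 34614 at 28 d, with Acta1 (skeletal alpha-actin) reaching 14740 FPKM. Of them, 7 were called lower and 0 higher at 3 d, beside 6.03% and 13.2% of all genes, and 6 lower and 3 higher at 28 d, beside 4.1% and 14.2%. All 8 photoreceptor and retina markers stayed below 1 FPKM in every sample, which was checked because 1 protocol field of the labels speaks of retinas. In the 11943 genes averaging 1 FPKM or more, the median change against 0 d was 0.12 at 1 d, 0.20 at 3 d and between 0.24 and 0.32 later, and 68.7 to 79.5% of called genes were higher. After median-ratio scaling that median was within 0.03 of 0 and the higher share was 44.8 to 49.6%, so values under this scaling stand beside each call of a member that it altered. In these whole-muscle samples, fewer cells of a type and less RNA per cell cannot be told apart. The first of the 3 d samples stood apart from the other samples of its day on the first principal component, at -20.3 against 0.18 to 5.96, and 3 d results are given without it where it matters.

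Krt8 and Krt18 lie next to each other on chromosome 15 and are read from opposite strands, and both went from mean levels below 1 FPKM at 0 d to 82.3 and 216 FPKM at 28 d. In GRCm38, Krt8 spans chr15:101996698-102004482 on the minus strand and Krt18 spans chr15:102028180-102032027 on the plus strand, with 23697 bases and 0 gene starts between their ends. Their starts face each other across this interval. Exons of Krt8 overlap 101 bases of the noncoding gene Gm36026 on the opposite strand (mean 0.118 FPKM), and a processed pseudogene, Krt8-ps, lies on chromosome 7, so reads shared with it are uncertain. Because this neighbouring pair moved together, the sequences directly before the gene starts are shown, with those of Des and Synm for comparison as the most abundant member and the member that fell. Windows from 250 bases before to 50 after the start came from RefSeq (GRCm38.p6) and were available for 7 of the 9 members. Printed is only the stretch before the gene start of GENCODE release 21, read 5′ to 3′ in the direction of the gene, and capitals mark the E-box CANNTG, the core letters that myogenic basic helix-loop-helix factors recognise.
Krt8 chr15:102004483-102004592 (- strand): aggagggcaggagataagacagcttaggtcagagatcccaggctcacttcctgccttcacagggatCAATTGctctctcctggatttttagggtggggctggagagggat
Krt18 chr15:102027966-102028179 (+ strand): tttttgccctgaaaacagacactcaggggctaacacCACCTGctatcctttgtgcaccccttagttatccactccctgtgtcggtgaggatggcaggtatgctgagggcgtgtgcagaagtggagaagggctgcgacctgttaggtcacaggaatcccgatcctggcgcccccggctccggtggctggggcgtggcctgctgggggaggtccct
Des chr1:75360042-75360328 (+ strand): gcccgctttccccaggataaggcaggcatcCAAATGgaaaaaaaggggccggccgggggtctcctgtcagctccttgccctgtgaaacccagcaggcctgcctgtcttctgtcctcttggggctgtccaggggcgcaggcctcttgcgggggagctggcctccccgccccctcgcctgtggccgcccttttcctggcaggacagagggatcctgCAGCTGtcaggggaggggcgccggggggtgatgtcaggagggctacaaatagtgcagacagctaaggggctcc
Synm chr7:67759743-67759992 (- strand): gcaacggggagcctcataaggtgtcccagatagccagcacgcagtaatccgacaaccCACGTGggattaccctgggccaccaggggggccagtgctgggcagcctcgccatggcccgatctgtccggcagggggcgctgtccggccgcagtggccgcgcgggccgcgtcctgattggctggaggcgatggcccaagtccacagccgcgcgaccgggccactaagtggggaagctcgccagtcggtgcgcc
Of all 32851 RefSeq windows of 300 bases, 72.3% held CANNTG, so its presence sets none of these genes apart. Over the whole windows, Krt8 had 3 matches, Des and Sync had 2 each, Krt18 and Synm had 1 each, and Vim and Nes had 0, where the median window had 1. The narrower form CAGCTG, which is contained in CANNTG and was found in 16.3% of windows, had 1 match in each of Krt8, Des and Sync. The letters TATAAA (13.6% of windows) were matched in Krt8 and Vim, GGGCGG (35.7%) in Des, Nes and Sync, and TGANTCA (7.81%) in no member, with both strands searched for each. A match is a run of letters and not a measured binding site.

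Krt8 was at 0.0331, 0.0342, 0 and 0.0643 FPKM in the 4 muscles of 0 d, which is 1, 1, 0 and 2 fragments. At 1 d it was at 0.036, 0.0332, 0.0951 and 0.0309 FPKM, with 1 to 3 fragments in a library. No sample of these days was above the floor of 3 fragments, and no fold is given between them. At 3 d the values were 7.54, 6.81, 20.0 and 16.1 FPKM (12.6 ± 6.50). At 5 d they were 63.4, 98.7, 67.4 and 66.7 FPKM (74.1 ± 16.5). Every sample from 3 d on was above every sample of 0 and 1 d, and every 5 d sample was above every 3 d sample. Means then stayed between 53.8 and 93.1 FPKM, with 62.8 ± 18.8, 53.8 ± 20.9, 93.1 ± 16.2 and 82.3 ± 3.75 for 7, 14, 21 and 28 d in turn. With all 4 libraries of a day summed, 4 fragments at 0 d stood against 1620 at 3 d and 9775 at 5 d. The depth-scaled ratio to 0 d was 382 at 3 d with a 95% counting interval of 149 to 1400, 2220 (867 to 8150) at 5 d and 2480 (968 to 9100) at 28 d. The width of these intervals comes from the 4 baseline fragments, and they cover counting error only.

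Krt18 was detected at baseline, at 0.497, 0.42, 0.821 and 0.175 FPKM at 0 d, which is 4 to 18 fragments in a library. At 1 d it was at 0.735, 0.588, 0.389 and 0.506 FPKM, inside the range of 0 d in all 4 samples. At 3 d the values were 21.9, 13.6, 52.4 and 46.9 FPKM (33.7 ± 18.8). The same 2 muscles were high for Krt8 and for Krt18 on that day. At 5 d Krt18 reached 240, 308, 183 and 183 FPKM (229 ± 59.6). The means for 7, 14, 21 and 28 d were 171 ± 52.0, 188 ± 57.7, 260 ± 21.9 and 216 ± 6.13 FPKM. The ratio to 0 d was 71.2 (52.6 to 99.0) at 3 d, 478 (354 to 664) at 5 d and 455 (337 to 632) at 28 d. Among detected genes, the median percentile of Krt18 went from 34.7 at 0 d to 99.2 at 5 d, and that of Krt8 from 5.68 to 97.1.

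**Figure D1:**
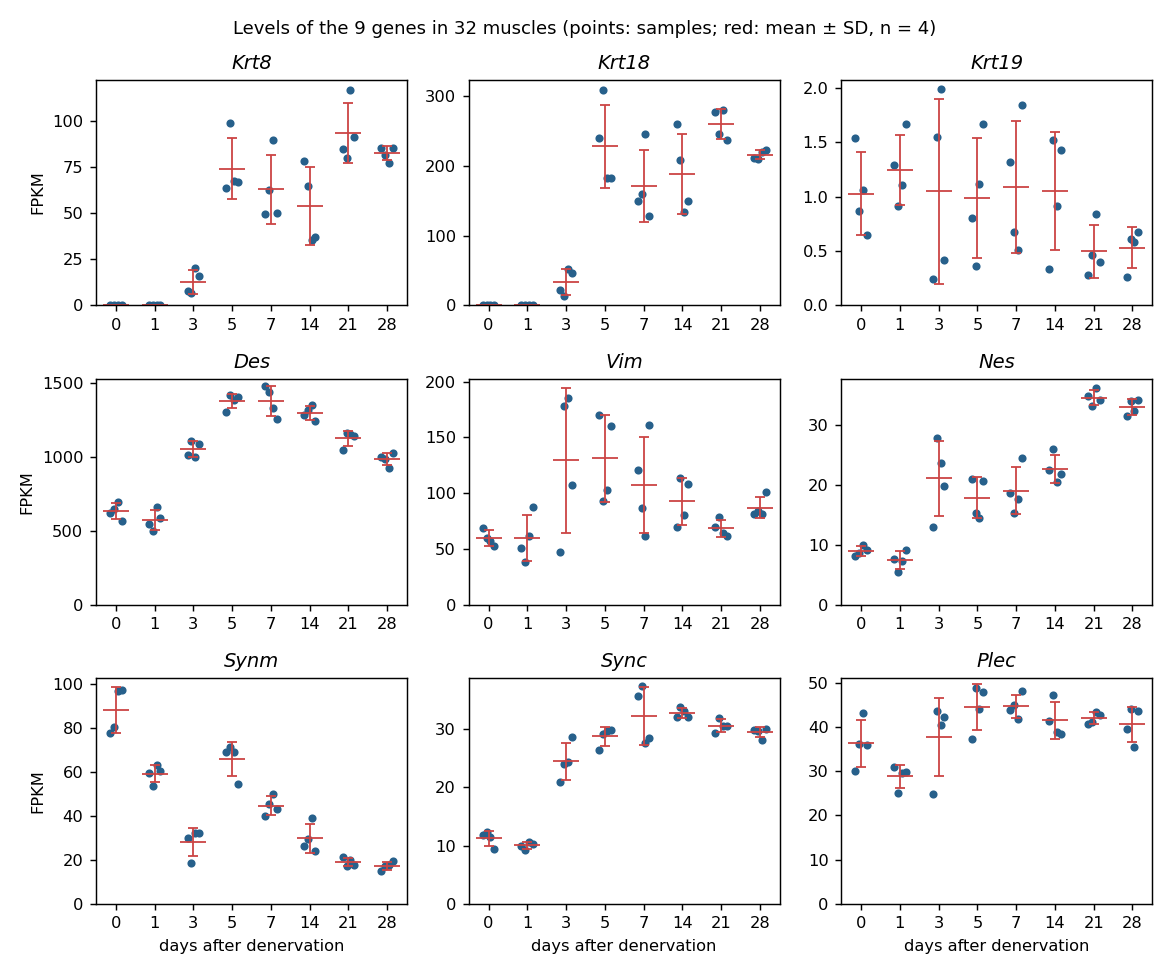
Level of each of the 9 genes in FPKM (vertical axis, own linear scale per panel, starting at 0) by day after denervation (horizontal axis, evenly spaced days), with 1 point per sample and red marks for mean ± SD of 4 samples. Krt8 and Krt18 lie on the axis at 0 and 1 d and average 74.1 and 229 FPKM at 5 d, mean Des is 632 FPKM at 0 d and 1375 FPKM at 5 d, and Synm falls from 87.9 to 17.3 FPKM with a return at 5 d.

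The 2 keratins kept a narrow proportion to each other. From 3 d on, the median ratio of Krt8 to Krt18 within a sample lay between 0.282 at 14 d and 0.385 at 28 d, and single samples spanned 0.249 to 0.50. Over the 32 samples their log2 levels had a Pearson r of 0.997, a description of points that share a long baseline at 0 and 1 d. After 5 d neither gene was called on any further step. Krt8 stood 0.84 higher on the log2 scale at 21 d than at 14 d (SE 0.25, adjusted p = 0.0888), and Krt18 0.51 higher (SE 0.28, adjusted p = 0.445). The 14 d samples of Krt8 were at 78.0, 64.6, 35.5 and 37.3 FPKM and those of 21 d at 84.8, 79.8, 116 and 91.4 FPKM, which do not overlap. This step of Krt8 passed the threshold with limma-voom on recovered fragments (adjusted p = 0.0361) and without the first 14 d sample (adjusted p = 0.0331). Both keratins were chosen for their rise in these same samples, so tests of later steps are not fully separate from that choice. Between 5 and 28 d the difference was 0.17 for Krt8 (95% interval -0.34 to 0.69) and -0.05 for Krt18 (-0.61 to 0.52).

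Krt19, the third simple-epithelial keratin, showed no such rise. It was at 1.54, 0.867, 1.06 and 0.645 FPKM at 0 d and averaged between 0.988 and 1.24 FPKM from 1 to 14 d. At 21 d it was at 0.279, 0.465, 0.839 and 0.403 FPKM and at 28 d at 0.257, 0.61, 0.587 and 0.677 FPKM. In both late groups 3 of 4 samples lay below the range of 0 d and 1 lay inside it. The change was -0.43 (SE 0.25, adjusted p = 0.175) at 21 d and -0.39 (adjusted p = 0.204) at 28 d, not called. At 21 d it was called lower after median-ratio scaling (-0.59, adjusted p = 0.0437) and after quantile normalization (-0.60, adjusted p = 0.032), and at 28 d after quantile normalization (-0.60, adjusted p = 0.0292). Krt19 was thus 1.29 to 3.68 times the level of Krt18 in the 0 d samples and 0.00101 to 0.00304 times that level at 21 and 28 d.

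Few other keratins were expressed. Of the 31 further genes with a symbol of Krt and a number, 28 stayed below 1 FPKM in every sample and 7 were tested. The exceptions were Krt80, Krt222 and Krt10, with highest values of 13.7, 1.47 and 1.42 FPKM. Krt80, a type II keratin, averaged 0.614 ± 0.137 FPKM at 0 d and 11.5 ± 2.60 FPKM at 3 d, when all its samples lay above the 0 d range, and it was back at 2.63 ± 0.304 FPKM by 5 d. It was called higher at 3 d (2.93), 5 d (1.17) and 7 d (0.84), beside 13.2%, 14.9% and 15.4% of all genes. Krt222 was called lower at 3 d (-0.80), beside 6.03%. The median change over the 7 tested keratins was between -0.09 and 0.03 on every day, beside 0.03 to 0.15 over all genes tested.

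Markers of epithelium were read beside the keratins. Of 8 simple-epithelium markers, 6 stayed below 1 FPKM in all samples, and Epcam, an epithelial adhesion molecule, reached at most 0.0611 FPKM. Their summed level was 0.659 to 0.834 FPKM at 0 d, 1.31 to 3.37 FPKM at 3 d and 1.18 to 1.35 FPKM at 5 d. It was 0.225 to 0.65 FPKM at 28 d, when Krt18 was at 211 to 222 FPKM. The part of epithelial cells in the keratin levels was not tested. Elf3, an epithelial transcription factor, was the 1 marker of this list called, with a highest value of 2.19 FPKM. It was higher at 3 d (0.97) and 5 d (0.82), beside 13.2% and 14.9% of all genes. Of the 9 epidermal markers, 6 stayed below 1 FPKM in all samples, and Krt5 reached at most 0.0812 FPKM and Krt1 0.0135 FPKM. Sfn and Krt10 reached 1.93 and 1.42 FPKM and were not called. Trp63, which encodes the factor p63, was called higher on every day, between 1.26 and 2.1, beside 6.34 to 15.4% of all genes. Of the 4 mesothelial markers, 3 stayed below 1 FPKM and Msln reached 2.26 FPKM.

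**Figure D2:**
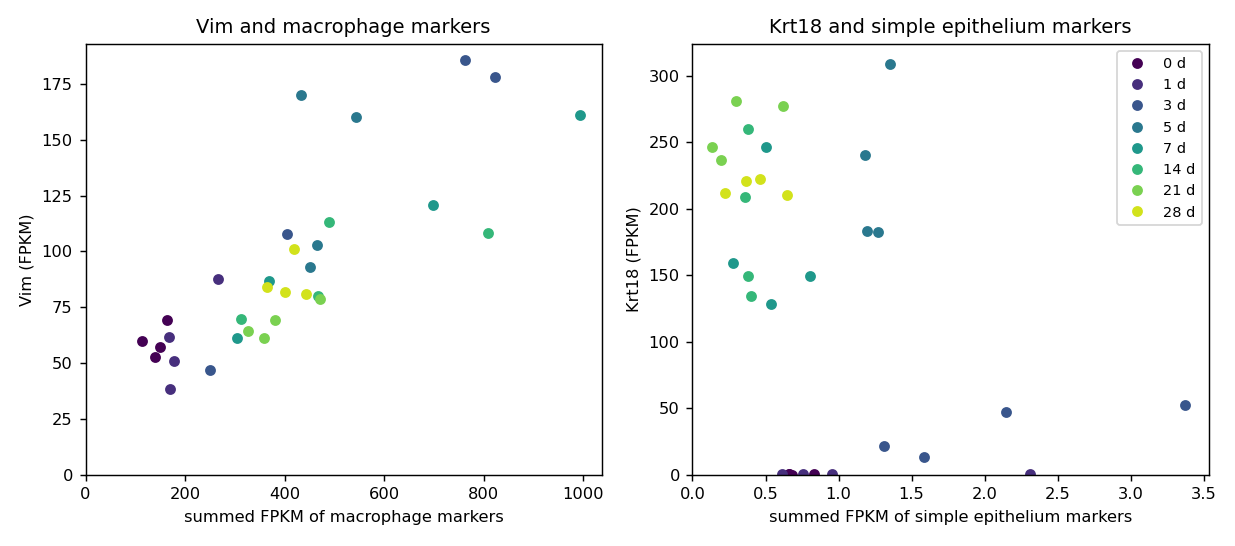
Left, Vim in FPKM against the summed FPKM of 6 macrophage markers, and right, Krt18 in FPKM against the summed FPKM of 8 simple-epithelium markers, with 1 point per sample coloured by day and linear axes from 0. In the 3 d samples Vim is lowest (47.1 FPKM) where the macrophage sum is lowest (250 FPKM), while at 5 d Vim is highest (170 FPKM) where that sum is lowest (434 FPKM), and the Krt18 values above 100 FPKM all occur at epithelial marker sums of at most 1.35 FPKM.

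Desmin was the most abundant member on every day, and at 5 d its mean was 2.18 times that of 0 d. Des spans chr1:75360329-75368579 on the plus strand. It was at 621, 648, 696 and 562 FPKM at 0 d and at 545, 498, 661 and 587 FPKM at 1 d, which overlap. From 3 d all samples lay above the range of 0 d, with means for 3, 5, 7, 14, 21 and 28 d of 1048 ± 53.9, 1375 ± 50.2, 1373 ± 102, 1296 ± 46.7, 1122 ± 53.7 and 982 ± 42.0 FPKM. Des was called higher on each of these days, with changes of 0.73 (SE 0.08, adjusted p = 4.4e-09) at 3 d, 1.12 (adjusted p = 9.0e-13) at 5 d and 0.64 (adjusted p = 6.2e-08) at 28 d. After median-ratio scaling the change was 0.50 at 3 d, 0.52 at 21 d and 0.26 at 28 d, under the 1.5-fold limit, and at 28 d it was 0.58, also under it, without the fourth 0 d sample. From 5 to 28 d the level fell by 0.49 (adjusted p = 2.5e-05), which is under 1.5-fold, and after quantile normalization it was called (-0.59, adjusted p = 8.3e-06). An antisense transcript, Gm15179, overlaps 220 exon bases of Des and averaged 10.2 FPKM.

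As the keratins rose by a larger factor than desmin, the make-up of the filament transcripts shifted. These shares were computed after the values had been seen, and they take Krt8, Krt18, Krt19, Des, Vim, Nes, Synm and Sync as the total. Their summed level was 801 ± 58.3 FPKM at 0 d, 1920 ± 77.5 at 5 d and 1450 ± 55.1 at 28 d. Krt8 and Krt18 together made up 0.0624 ± 0.0254% of the sum at 0 d. Their share was 3.55 ± 1.83% at 3 d, 15.7 ± 3.21% at 5 d and 20.6% at the end. Des made up 78.8 ± 1.42% at 0 d, 71.6 ± 2.79% at 5 d and 67.8 ± 0.789% at 28 d, and Synm fell from 11 ± 1.62% to 1.2 ± 0.115%. At 28 d the transcript of Krt18 alone stood at 0.212 to 0.239 times that of Des, from 0.000312 to 0.00118 times at 0 d.

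**Figure D3:**
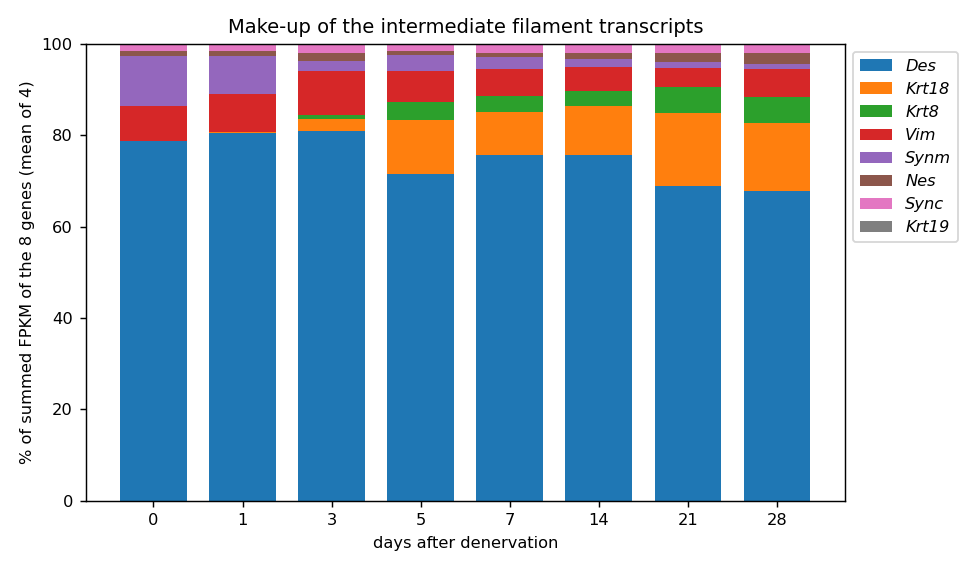
Stacked bars of the mean percentage of the summed FPKM of 8 filament genes (vertical axis, 0 to 100%) by day after denervation, with 4 samples per bar. Krt8 and Krt18 together are 0.0624% of the sum at 0 d and 20.6% at 28 d, Des goes from 78.8% to 67.8%, and Synm from 11% to 1.2%.

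Against 0 d, the 7 members not chosen for their rise gave 20 calls higher and 5 lower out of 49 comparisons. After median-ratio scaling they gave 16 higher and 8 lower, and after quantile normalization 18 and 8. No member was called by limma at 1 d, with 2 of 7 at an unadjusted p under 0.05 and 0 called by limma-voom, beside 6.34% of all tested genes called higher and 2.49% lower. At 3 d Des, Vim, Nes and Sync were called higher and Synm lower, 4 and 1 of 7, beside 13.2% and 6.03% of all genes. At 5 d the same 4 were higher, beside 14.9%, and Synm was under the fold limit at an adjusted p of 0.0175, so 0 of 7 were called lower by limma, beside 3.86%. On each later day Des, Nes and Sync were higher and Synm lower, beside 15.4% and 4.1% of all genes for 7 d, 14.6% and 3.83% for 14 d, 11.8% and 3.93% for 21 d, and 14.2% and 4.1% for 28 d. The members were named with earlier results known, so these counts are a description of the set.

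Synm, whose protein joins desmin filaments and binds dystrophin-associated proteins, was the member that fell. It was at 77.5, 80.3, 96.6 and 97.3 FPKM at 0 d and at 59.5, 53.7, 63.0 and 60.2 FPKM at 1 d, without overlap. At 3 d it was at 29.7, 18.6, 32.0 and 32.4 FPKM, and at 5 d it was back at 69.0, 71.2, 69.1 and 54.5 FPKM. All 5 d samples lay above all 3 d samples and still below all 0 d samples. The levels for 7, 14, 21 and 28 d were 44.6 ± 4.36, 29.7 ± 6.50, 19.0 ± 1.91 and 17.3 ± 1.80 FPKM. The change against 0 d was -0.56 (SE 0.14, adjusted p = 0.0025) at 1 d, under 1.5-fold, -1.63 (adjusted p = 8.4e-11) at 3 d, -0.41 (adjusted p = 0.0175) at 5 d, under 1.5-fold, and -2.28 (adjusted p = 1.1e-13) at 28 d. After median-ratio scaling the changes at 1 d (-0.75) and 5 d (-0.80) were also called.

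The dip of Synm at 3 d was tested directly between neighbouring days. From 1 to 3 d it fell by 1.07 (adjusted p = 4.9e-07), and from 3 to 5 d it rose by 1.22 (adjusted p = 1.6e-07), the 1 member called on the latter step, on which 3.72% of all genes were called higher and 2.05% lower. Without the first 3 d sample these values were -1.11 and 1.26. The later declines of 0.59 from 7 to 14 d (adjusted p = 0.0172) and 0.60 from 14 to 21 d (adjusted p = 0.0221) just passed both limits. Each was lost after median-ratio scaling (-0.60, adjusted p = 0.0516, and -0.51, adjusted p = 0.189). Quantile normalization (-0.57 and -0.52) and a fit with only the groups compared (adjusted p = 0.164 and 0.087) lost both too. The 7 to 14 d decline was also lost without the first or the fourth 14 d sample or the second or the third 7 d sample (-0.58 to -0.50). That from 14 to 21 d was lost without the second or the third 14 d sample or the second or the fourth 21 d sample (-0.60 to -0.47). From 5 to 28 d Synm fell by 1.87 (adjusted p = 6.9e-11). Exons of Synm overlap Ttc23 on the opposite strand by 84 bases and Gm45102 by 426 bases, at mean levels of 1.62 and 0.104 FPKM.

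Sync, the gene of syncoilin, rose and stayed high. It was at 11.7, 12.4, 11.5 and 9.35 FPKM at 0 d, 9.89, 9.22, 10.6 and 10.3 FPKM at 1 d and 20.9, 24.1, 24.3 and 28.6 FPKM at 3 d. Every sample from 3 d on lay above every sample of 0 and 1 d, with means for 5, 7, 14 and 28 d of 28.8 ± 1.63, 32.3 ± 4.92, 32.8 ± 0.871 and 29.5 ± 0.869 FPKM. The change was 1.06 (SE 0.09, adjusted p = 2.7e-11) at 3 d and 1.47 (adjusted p = 3.4e-14) at 14 d, and it was called from 3 to 28 d under median-ratio scaling too. Between 5 and 28 d it differed by 0.03 (95% interval -0.14 to 0.21). Exons of Sync overlap 782 exon bases of Rbbp4 on the opposite strand, a gene with a mean of 12.5 FPKM, and the strand setting of the counting is not given in the sources used here.

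Nes rose in 2 stages. It was at 8.21, 8.56, 10.05 and 9.22 FPKM at 0 d, 7.71, 5.48, 7.24 and 9.13 FPKM at 1 d and 13.1, 27.9, 23.6 and 19.8 FPKM at 3 d. From 5 to 14 d the means ran from 17.9 ± 3.43 to 22.7 ± 2.41 FPKM. At 21 d it was at 34.8, 33.2, 36.2 and 34.3 FPKM and at 28 d at 31.6, 34.1, 32.4 and 34.3 FPKM, above every earlier sample. The change against 0 d was 1.10 (SE 0.16, adjusted p = 1.6e-06) at 3 d, 0.90 (adjusted p = 3.0e-05) at 5 d and 1.77 (adjusted p = 3.1e-10) at 28 d. At 5 d it was under 1.5-fold after median-ratio scaling (0.54). From 5 to 28 d Nes rose by 0.87 (adjusted p = 0.000192), a comparison without the 0 d samples, in which 2.47% of all genes were called higher and 2.34% lower. The step from 14 to 21 d was 0.59 (adjusted p = 0.0566) and was called after median-ratio scaling (0.68, adjusted p = 0.0037). It was also called after quantile normalization (adjusted p = 0.00949) and with only the groups compared (adjusted p = 0.0158). The same held with limma-voom (adjusted p = 0.0301) and with a filter at 1 FPKM (adjusted p = 0.0394).

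Vim rose early, and its samples differed widely within a day. It was at 69.1, 59.9, 57.2 and 52.8 FPKM at 0 d and 51.0, 38.3, 61.9 and 87.5 FPKM at 1 d. At 3 d it was at 47.1, 178, 185 and 108 FPKM, so 3 samples lay above the 0 d range and the first lay below it. At 5 d it was at 170, 93.2, 103 and 160 FPKM, all above that range. It was called higher at 3 d (0.93, SE 0.32, adjusted p = 0.018) and 5 d (1.08, adjusted p = 0.00571), and the value at 7 d was 0.75 (adjusted p = 0.0514). Without the second or the third 3 d sample the call at 3 d was lost (0.71 and 0.69), and without the first it was 1.35 (adjusted p = 0.000153). At 28 d Vim was at 81.0 to 101 FPKM, above the 0 d range in 4 of 4 samples, with a change of 0.53 (95% interval -0.11 to 1.18, adjusted p = 0.172).

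The 6 macrophage markers summed to 250, 824, 762 and 406 FPKM in the 3 d samples in the order in which Vim is given, and the 6 fibroblast markers to 258, 659, 681 and 477 FPKM. The first sample was lowest in all 3 quantities. At 7 d, where Vim was at 121, 86.9, 61.3 and 161 FPKM, the macrophage sums were 697, 369, 304 and 993 FPKM, in the same order of samples. At 5 d the order differed, since Vim was at 170, 93.2, 103 and 160 FPKM while the macrophage sums were 434, 450, 465 and 544 FPKM and the fibroblast sums 646, 673, 717 and 780 FPKM. Of the 5 endothelial markers, 3 were called lower and 0 higher at 3 d, with a median of -0.64, beside 6.03% and 13.2% of all genes. The macrophage sum was 113 to 164 FPKM at 0 d and 366 to 443 FPKM at 28 d, and 6 of 6 of its markers were called higher from 3 to 7 d and 5 of 6 from 14 d on, beside 11.8 to 15.4% of all genes called higher on these days. The part of these cells in the level of Vim was not tested. Nes at 3 d was likewise lowest in the first sample (13.1 FPKM), whereas Krt18 was lowest in the second (13.6 FPKM).

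Plec, the largest member by merged exon length (18113 bases), was called on no day. It was at 30.1, 36.0, 43.0 and 35.9 FPKM at 0 d and between 28.8 ± 2.63 at 1 d and 44.6 ± 2.67 FPKM at 7 d on average. The change was largest at 1 d (-0.32, SE 0.13, adjusted p = 0.06) and 7 d (0.30, adjusted p = 0.0508). Its sign from 3 d on depended on the scaling, with 0.17 at 28 d as deposited (95% interval -0.09 to 0.42) and -0.21 after median-ratio scaling. Parp10 overlaps 205 exon bases of Plec on the same strand.

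**Figure D4:**
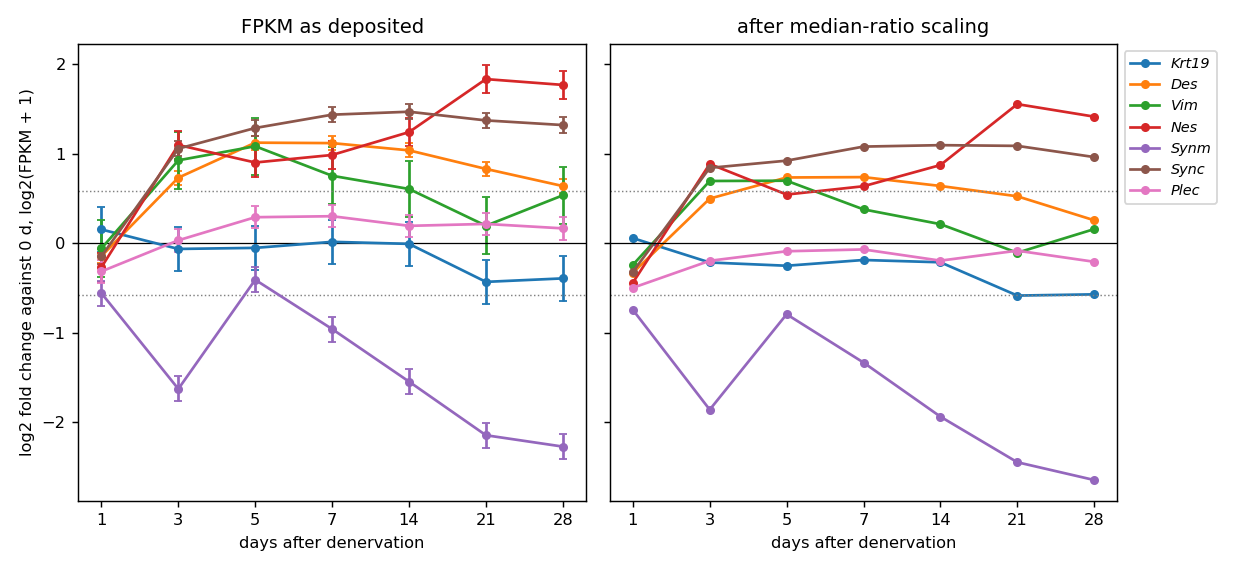
Log2 fold change against 0 d (vertical axis, on log2(FPKM + 1)) by day after denervation for the 7 members not chosen for their rise, left for FPKM as deposited with SE bars and right after median-ratio scaling. Dotted lines mark 1.5-fold. Synm is below 0 on every day in both panels and Nes, Sync and Des are above 0 from 3 d in both, while Plec lies above 0 from 3 d on the left (0.17 at 28 d) and below 0 on the right (-0.21).

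A ratio to Des within a library does not depend on how libraries were scaled, so the other filament genes were also compared with 0 d in this form. For each of 35 comparisons an exact two-sided permutation test of 4 against 4 samples was made, whose smallest possible p is 0.0286, or 0.0455 after adjustment over the 35. The ratio of Synm to Des was 0.124 to 0.173 in the 0 d samples and 0.0954 to 0.109, 0.0169 to 0.0322 and 0.0151 to 0.0192 in those of 1, 3 and 28 d. It did not overlap the 0 d range on any day, and the exact test gave the smallest adjusted p (0.0455) on all 7 days. Here the 5 d values, 0.0388 to 0.0529, were also far below those of 0 d, a log2 difference of -1.54 where Synm itself differed by -0.41.

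Sync rose by more than Des. Its ratio to Des was 0.0165 to 0.0191 at 0 d, 0.0208 to 0.0264 at 3 d and 0.0293 to 0.0305 at 28 d, without overlap from 3 d on (log2 differences of 0.24 to 0.76, exact adjusted p = 0.0455 on each day). Plec, not called in its own level, was lower relative to Des from 3 d on, with log2 differences of -0.83 at 5 d and -0.47 at 28 d (exact adjusted p = 0.0455). The ratio of Nes to Des was 0.0132 to 0.0164 at 0 d and 0.0105 to 0.0161 at 5 d, and the groups separated at 21 d (1.12) and 28 d (1.24). Without the first 3 d sample they separated at 3 d too (0.64, exact p = 0.0286). Vim relative to Des passed the test at 21 d (-0.63, exact adjusted p = 0.0455), and without the fourth 7 d sample the exact p at 7 d was 0.0286 (-0.63). At 3 d the samples spanned 0.0467 to 0.186 around a 0 d range of 0.0822 to 0.111. With 1 sample left out, 4 against 3 samples give a coarser exact test, and p was 0.0571 for some ratios that kept their direction. These were Plec at 28 d without any 1 of the 28 d samples (-0.51 to -0.43) and at 3 d without the first 3 d sample (-0.53, against -0.70 with it), and Synm at 1 d without the third 1 d sample (-0.38). They were also Sync at 3 d (0.36) and 7 d (0.36 to 0.37) without the third or the fourth 0 d sample, and at 5 d without the third or the fourth 5 d sample (0.22 to 0.23).

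**Figure D5:**
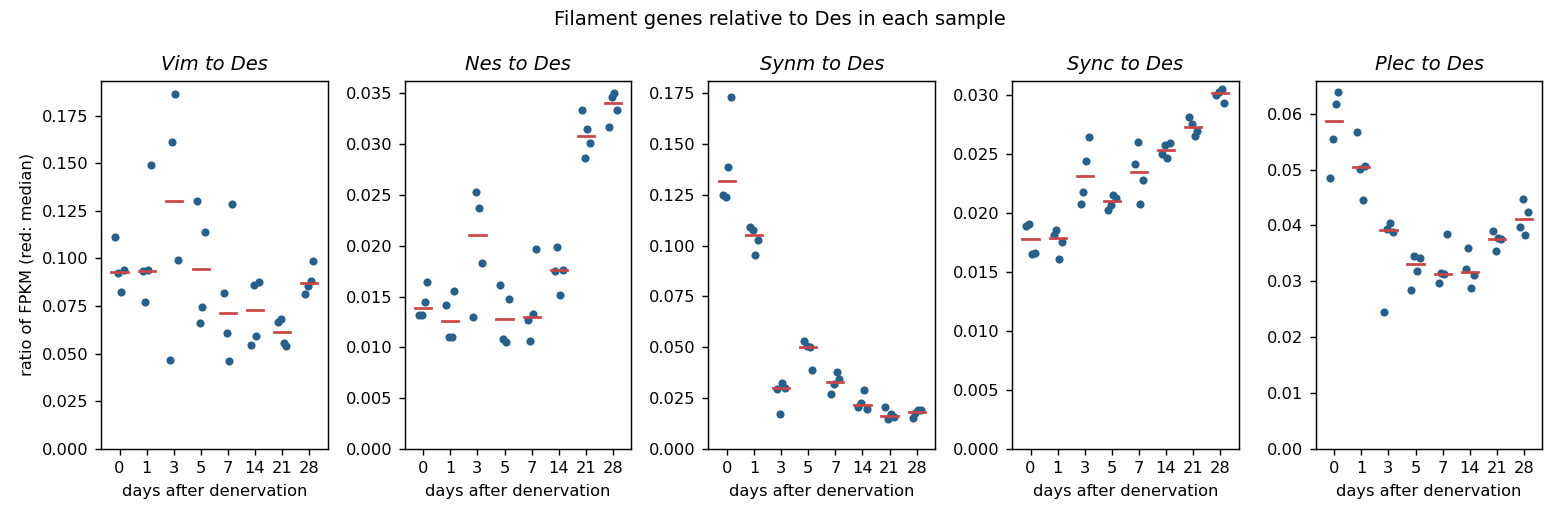
Ratio of the FPKM of Vim, Nes, Synm, Sync and Plec to that of Des (vertical axis, own linear scale per panel from 0) by day after denervation, with 1 point per sample and red lines for the median of 4. The ratio of Synm falls from a median of 0.132 to 0.0297 at 3 d and 0.0182 at 28 d, that of Sync rises from 0.0178 to 0.0301, and that of Nes rises from 0.0138 to 0.034.

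On the steps between neighbouring days, members were called mainly from 1 to 3 d. On that step Des (0.88), Vim (0.98), Nes (1.37) and Sync (1.2) were higher and Synm lower, 4 and 1 of the 7 members tested, beside 6.63% of all genes higher and 3.93% lower. The call of Vim on this step was lost after quantile normalization (0.77, adjusted p = 0.0532), with only the groups compared (adjusted p = 0.197), and without the second 1 d sample or the second or the third 3 d sample (0.75 to 0.80). From 5 to 7 d none of the 9 was called by limma, with 1 of 9 at an unadjusted p under 0.05 and 0 called by limma-voom, beside 0.449% and 0.208% of all genes. Synm on this step (-0.55, adjusted p = 0.0325, under 1.5-fold) was called after quantile normalization (-0.59), without the fourth 5 d sample (-0.64) and without the third 7 d sample (-0.61). From 7 to 14 d and from 14 to 21 d Synm was the 1 member called, beside 0.376% of all genes called higher and 0.258% lower on the former step and 0.0906% and 0.362% on the latter. From 21 to 28 d none was called by limma, with 1 of 9 at an unadjusted p under 0.05 and 0 called by limma-voom, beside 0.159% and 0.0408%.

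Genes whose proteins work with these filaments were counted in lists. Among 9 desmin chaperones and turnover factors, 6 were called higher and 1 lower at 3 d, and 5 higher and 0 lower at 28 d, beside 13.2% and 6.03% of all genes at 3 d and 14.2% and 4.1% at 28 d. Hspb8, Hspb7 and Cryab are small heat shock proteins that bind unfolded filament and Z-disc proteins. Cryab was at 397 ± 73.1 FPKM at 0 d, 1967 ± 271 at 3 d and 637 ± 60.2 at 28 d, with changes of 2.31 and 0.70, and 0.31 at 28 d after median-ratio scaling. Hspb8 changed by 3.23 at 3 d and 2.59 at 28 d, and Hspb7 by 2.62 and 1.89. Hspb6 was the chaperone called lower at 3 d (-0.86). The median of the list was 1.63 at 3 d and 0.70 at 28 d, beside 0.06 and 0.14 over all genes tested.

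Among 13 plakins and desmosome proteins, 10 were tested and 3 of the 10 were called higher at 3 d and 2 at 28 d, beside 13.2% and 14.2% of all genes, and none was lower. Jup (plakoglobin, a link between junctions and filaments) rose from 13.5 ± 1.71 FPKM at 0 d to 51.7 ± 6.97 at 7 d (1.86) and was at 26.7 ± 3.47 at 28 d (0.94, or 0.57 after median-ratio scaling). Macf1, a spectraplakin that joins actin to microtubules, rose from 5.34 ± 0.525 to 12.6 ± 2.50 FPKM at 3 d (1.08). Dsp (desmoplakin), the protein that anchors keratins and desmin at desmosomes, stayed at or below 0.037 FPKM. Pkp4 (plakophilin 4) was called at 3 d (0.68), or 0.49 after median-ratio scaling, which is under 1.5-fold. Dst, another plakin, showed 0.09 at 3 d and was not called on any day.

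Among 11 other intermediate filament genes, 7 stayed below 1 FPKM in every sample, 7 were tested, and 2 of those were called higher at 3 d and 3 at 28 d, beside 13.2% and 14.2% of all genes. Lmna, which encodes the nuclear lamins A and C, was at 15.6 ± 1.62 FPKM at 0 d, 61.0 ± 15.2 at 3 d and 65.8 ± 6.90 at 28 d, with all 3 d samples above the 0 d range and a change of 1.87. Lmnb2 changed by 0.80 at 3 d and 1.23 at 28 d, and Prph (peripherin) by 0.61 at 28 d, or 0.48 after median-ratio scaling, which is under 1.5-fold. Of 6 nuclear envelope linkers, Syne1 (nesprin 1; 1.26 at 3 d) and Emd (emerin; 0.98 at 3 d) were called higher from 3 d on. Sun2 was called lower from 5 d on (-1.14 at 5 d). On these days 11.8 to 15.4% of all genes were called higher and 3.83 to 4.1% lower. Emd had already risen at 1 d, from 10.3 ± 0.57 FPKM at 0 d to 22.0 ± 0.97 FPKM, without overlap. After median-ratio scaling Emd was under 1.5-fold at 5 d (0.37) and 28 d (0.30). Its deposited means at 7, 14 and 21 d were 16.9, 16.7 and 17.0 FPKM, below the 17.8 FPKM of 5 d. Of 11 costamere and Z-disc anchors, 5 were higher and 1 lower at 3 d and 6 higher at 28 d, beside 13.2%, 6.03% and 14.2% of all genes. Among them were Tln1 (talin 1; 1.68 at 3 d) and Vcl (vinculin; 1.06 at 3 d, 0.40 at 28 d and then not called). The 1 anchor called lower at 3 d was Tln2 (talin 2; -0.65, or -0.86 after median-ratio scaling). Of the 6 at 28 d, Tln1 kept 1.5-fold after median-ratio scaling (0.72), while Ank3 (0.31), Dtna (0.52), Dmd (0.40), Neb (0.58) and Actn3 (0.27) came under it, as did Dmd at 3 d (0.49).

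Of 6 genes of myoblasts and developing or regenerating fibres, 3 were called higher at 3 d and 5 at 28 d, beside 13.2% and 14.2% of all genes. Myog (myogenin) changed by 6.18 at 3 d and 5.36 at 28 d, Myod1 by 2.78 and 3.44, and Myh3, the embryonic myosin heavy chain, by 4.56 and 4.24, while Pax7, the satellite cell marker, showed -0.16 and 0.28 and was not called.

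For each member, the genes outside the set with the most similar course were found among 11941 genes, as a description. The measure was Pearson r of log2(FPKM + 1) over the 32 samples. For Krt18 these were Chrna1 (0.988), Dapk2 (0.987) and Lsm6 (0.985), and for Krt8 Chrna1 (0.986), Dapk2 (0.984) and Map1lc3a (0.983). Chrna1 encodes the alpha subunit of the muscle acetylcholine receptor and Map1lc3a an autophagosome protein. For Sync the closest were Tbcb (0.98), Ttc9 (0.979) and Eef1g (0.978), for Des Cpne2 (0.97), Rhoc (0.969) and Mapt (0.965), and for Synm Pfn2 (0.942), Mstn (0.937), the gene of myostatin, and Zfp467 (0.893). For Nes they were Aif1l (0.954), Eef1a1 (0.943) and Gpx1 (0.941), and for Vim Gas7 (0.943), St6gal1 (0.94) and Coro1c (0.928). Krt19 and Plec had the weakest best matches, Sfxn3 (0.856) and Aldh16a1 (0.867). Among the members, Sync followed Krt18 (0.962) and Des (0.943) closely, and Synm was most opposed to Nes (-0.83). All points share the 0 and 1 d baseline, which raises r between genes that rose by 5 d.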

How the data were processed

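RNA of GAS muscles was sequenced in 150-bp paired-end reads by the study. The authors deposited 1 table of FPKM values, and the submitters' processing notes name CASAVA, HISAT2 2.1.0, DESeq2 and GRCm38, while the counter, its annotation and its strand setting are not given in the sources used here. With merged exon lengths of GENCODE release 21, 99.3 to 99.4% of values under 200 fragments came out whole (tolerance 0.05), for 33356 of 33397 genes, with a median total of 16663159 fragments. Columns were assigned to days by name, except the 4 named C, which were taken as 0 d by elimination, and no column was left out. The samples of a day are counted in the order of the column names.

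Values of log2(FPKM + 1) were fitted in limma 3.58.1 (R 4.3.3, functions lmFit, contrasts.fit and eBayes with a variance trend) for genes that reached 0.1 FPKM in 4 or more samples, with Benjamini-Hochberg adjustment over all genes in each of 14 contrasts. The fit was tested on simulated data. Ratios to Des were compared by exact permutation in scipy 1.17.1. Counting ratios are sums of recovered fragments over 4 libraries, scaled by depth, with exact 95% intervals that cover counting error only.

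Named were all members and the nearest genes outside the set by r. From the lists, the rule was the 3 most abundant genes and genes called where 3 or fewer were. Not every gene under this rule is named, and genes of the macrophage, fibroblast, endothelial, Schwann cell and retina lists are not. Some list genes (Epcam, Krt5, Krt1, Dsp, Hspb6, Prph, Syne1, Tln1, Vcl, Ank3, Dtna, Dmd, Lmnb2, Pax7) were named after their values were seen. Krt14 was not analysed here. The members, the gene lists and the tests were chosen with earlier results of these data known. Alternatives were the pseudocount, the filter, median-ratio scaling, quantile normalization, rescaling to TPM, no variance trend, only the groups compared, limma-voom on recovered fragments, no fold limit, and leaving out each sample.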

Additional observations from a re-analysis of the deposited data

Results flagged for a closer look

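By Dixon's criterion, 5 of the 72 groups of 4 values held a sample apart from the others, where chance flags about 1 in 20, or 3.6 groups. At 1 d, Krt8 was at 0.0951 FPKM in 1 sample and at 0.0309 to 0.036 in the others, which is 3 fragments against 1. At 5 d, Krt8 was at 98.7 FPKM in 1 sample and at 63.4 to 67.4 in the others. Vim at 28 d was at 101 FPKM in 1 sample and at 81.0 to 84.0 in the others. Synm at 5 d was at 54.5 FPKM in 1 sample and at 69.0 to 71.2 in the others, and all 4 lay above the 3 d samples. Plec at 3 d was at 24.7 FPKM in 1 sample and at 40.3 to 43.5 in the others; this is the sample that stood apart on the first principal component.

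Differences between denervated days that passed the limma test were also taken up for a closer look. From 1 to 3 d these were Des (0.88), Vim (0.98), Nes (1.37), Sync (1.2) and Synm (-1.07). The call of Vim on this step was lost after quantile normalization (adjusted p = 0.0532) and with only the groups compared (adjusted p = 0.197). It was also lost without the second 1 d sample or the second or the third 3 d sample. Synm differed by 1.22 from 3 to 5 d, by -0.59 from 7 to 14 d and by -0.60 from 14 to 21 d. The calls from 7 to 14 d and from 14 to 21 d were lost after median-ratio scaling, after quantile normalization and with only the groups compared. Between 5 and 28 d, Nes differed by 0.87 and Synm by -1.87.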

How the results depend on the processing

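The count of members called higher than 0 d was 20 as reported and 16 to 22 over the alternatives. Members called lower than 0 d numbered 5 as reported and 8 after median-ratio scaling and 8 after quantile normalization. Members called lower than the day before numbered 3 as reported, 1 after median-ratio scaling and 1 with only the groups compared in the fit. Leaving out 1 sample at a time gave 19 to 22 calls higher and 5 to 6 lower than 0 d, 4 to 6 higher and 2 to 4 lower than the day before, and 2 to 2 at 28 d against 5 d. No called change reversed its direction under any alternative run. Some uncalled changes, among them those of Plec and Krt19, turned sign with scaling on some days. The call of Vim at 3 d was lost after quantile normalization (adjusted p = 0.0824), with only the groups compared (adjusted p = 0.13) and without the second or the third 3 d sample. Vim was called at 7 d under 4 settings (adjusted p = 0.0494 with a pseudocount of 0.1, 0.0465 with limma-voom, 0.0366 with a filter at 1 FPKM and 0.0164 after rescaling to TPM). At 7 d it was also called without the third 7 d sample (adjusted p = 0.0131). At 14 d it was called after rescaling to TPM (0.82, adjusted p = 0.038) and with only the groups compared (0.61, adjusted p = 0.0177).

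Among the exact tests of ratios to Des with 1 sample left out, 12 of 280 lost their call, each at an exact p of 0.0571. The fitted log2 changes of Krt8 and Krt18 against 0 d depended on the pseudocount, with 6.45 for Krt8 at 3 d at a pseudocount of 0.1, which is why counting ratios are given. Precision at 0 and 1 d is limited by the 0 to 3 fragments of Krt8 per library. No paired analysis was possible because the columns carry letters, or numbers at 0 d, that are tied to no replicate number of the labels. By the study's methods, mice were also killed at each time point, so muscles of different days came from different animals.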
